A study of Mus musculus with 96 samples.

Results

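The genes described here make, move and break down serotonin: the tryptophan hydroxylases Tph2 and Tph1, the decarboxylase Ddc, the serotonin transporter Slc6a4 and the monoamine oxidase Maoa. They were followed by every array probe that carries one of these symbols, which gave 9 of 46632 probes and 5 of 17711 named genes: 1 probe each for Tph2 and Tph1, 2 each for Slc6a4 and Maoa, and 3 for Ddc. The set was chosen by pathway, and Tph2 was selected on its measured diet difference in these same arrays, so that difference is given below as a description with no test. DBA/2J mice, an inbred strain, ate a high-fat diet or stayed on standard breeding diet for 6 weeks, and tissues were taken at 12 weeks of age after a fast of 2 hours. Brown, gonadal, inguinal, mesenteric, perirenal and subcutaneous fat, liver and muscle (quadriceps) were each measured on Illumina Mouse-6 BeadChips in 6 biological replicates per diet, 96 arrays in 16 groups. The labels name no transgene or drug for any group. Values are background-corrected, quantile-normalized probe signals on the log2 scale unless called intensities, and differences are high-fat minus standard diet; the levels of different probes cannot be set against each other.

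Serotonin is made from tryptophan in a pair of steps. A tryptophan hydroxylase adds a hydroxyl group, the rate-limiting step, using tetrahydrobiopterin as cofactor, and Ddc, the aromatic amino acid decarboxylase that also makes dopamine, then removes the carboxyl group. Tph1 is the hydroxylase of enterochromaffin cells of the gut, the pineal gland and mast cells, whereas Tph2 is known as the hydroxylase of serotonergic neurons of the brainstem and enteric nervous system. Slc6a4 carries serotonin back into neurons and platelets, and Maoa and Maob are the mitochondrial oxidases that start its breakdown. In fat, peripheral serotonin is known as a signal that acts on lipid storage in white and heat production in brown adipocytes.

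The genome upstream of the starts of Tph2, Tph1 and Ddc is shown because Tph2 carries the diet difference, Tph1 is the other hydroxylase, and Ddc is the member with the clearest tissue pattern. All 5 genes were found in a RefSeq promoter table of build GRCm38.p6, in 7 windows. Each window printed is the 250 bases before a transcript start, 5′ to 3′ on the gene's own strand, which is the minus strand for these 3 genes. Capitals mark matches on either strand to 4 motifs. The TATA box was searched as TATAAA. The inverted CCAAT box was searched as ATTGG and the core of the cAMP response element as TGACG. The palindromic site of the liver factor HNF1, picked with the windows in view, was searched with any letters at its centre.
Tph2, chr10:115185023-115185272: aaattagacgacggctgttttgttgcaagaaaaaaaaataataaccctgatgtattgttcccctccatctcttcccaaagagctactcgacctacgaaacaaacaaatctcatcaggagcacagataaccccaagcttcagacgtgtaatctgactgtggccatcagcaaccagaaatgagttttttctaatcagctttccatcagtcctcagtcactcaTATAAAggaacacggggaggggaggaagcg
Tph1, second start, chr7:46667378-46667627: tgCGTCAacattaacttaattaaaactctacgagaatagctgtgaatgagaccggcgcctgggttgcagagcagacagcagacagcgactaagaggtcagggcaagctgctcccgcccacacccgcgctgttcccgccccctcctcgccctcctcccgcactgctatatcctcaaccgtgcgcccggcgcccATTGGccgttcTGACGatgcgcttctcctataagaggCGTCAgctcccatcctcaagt
Ddc, first start, chr11:11898145-11898394: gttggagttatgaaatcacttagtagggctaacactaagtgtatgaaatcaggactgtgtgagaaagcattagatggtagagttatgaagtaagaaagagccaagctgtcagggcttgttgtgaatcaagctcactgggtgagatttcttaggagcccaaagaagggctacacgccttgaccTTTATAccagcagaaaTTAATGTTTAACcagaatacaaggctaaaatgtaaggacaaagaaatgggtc
Ddc, second start, chr11:11890409-11890658: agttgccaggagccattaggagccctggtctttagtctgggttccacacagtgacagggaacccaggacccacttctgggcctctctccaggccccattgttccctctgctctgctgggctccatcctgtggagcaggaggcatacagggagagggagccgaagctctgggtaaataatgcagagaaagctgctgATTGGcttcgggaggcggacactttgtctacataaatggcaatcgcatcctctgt
In the Tph2 window the single match was TATAAA, 30 to 25 bases before the start, a motif held by 12.4% of the 32851 windows in the table. The second Tph1 window held ATTGG once and TGACG 3 times, motifs found in 33.8% and 17.8% of windows. The first Ddc window held this loosened HNF1 pattern at 52 to 41 bases before the start, and 0.143% of windows hold the pattern. It also held TATAAA on the opposite strand, and the second Ddc window held ATTGG. The Tph2 window had a GC content of 43.6%, as did the window of the first Tph1 start, and the printed Tph1 window one of 58.8%. A match is a string of letters and says nothing of whether a factor binds there.

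The tissues were checked against marker genes. Adiponectin (Adipoq) had group means from 14.72 to 15.59 in the 6 fat tissues and 7.49 and 7.76 in liver, creatine kinase (Ckm) was 15.54 and 15.51 in muscle, albumin (Alb) was highest in liver at 9.45 and 9.28, and uncoupling protein (Ucp1) in brown fat was 14.9 and 15.27. Ucp1 also reached 14.31 and 14.49 in subcutaneous fat and 11.92 and 12.12 in muscle. Adipoq was 11.33 and 11.63 in muscle, and Ckm was 12.78 and 12.16 in brown fat. In perirenal fat single arrays read 8.24 to 15.19 for Ckm on the standard diet and 8.53 to 12.32 on the high-fat diet. The part of muscle RNA in the fat samples was not tested. In mesenteric fat the exocrine pancreas markers, 8 genes on the array, summed to between 201907 and 412434 in 11 arrays and to 1806 in standard-diet replicate 1. In all 6 fat tissues the 4 arrays of lowest contrast were high-fat replicates 3 to 6: their ratio of upper quartile to median intensity was 1.34 to 1.72. It was 1.96 to 2.68 on high-fat replicates 1 and 2, and 1.7 to 2.49 on arrays of the standard diet. Array medians of intensity ran from 107 to 244, and the number of arrays, not a count of reads, limits the precision. In whole tissue, fewer cells of a type and less RNA per cell cannot be told apart.

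Tph2 mRNA signal was far higher in fat on the high-fat diet and stayed at the bottom of the range in liver. In perirenal fat the 6 standard-diet intensities had a lowest value of 393, a median of 535 and a highest of 822, and the high-fat intensities a lowest of 6657, a median of 11793 and a highest of 17940. After normalization these were 7.84, 8.32 and 8.72 against 12.69, 12.99 and 13.53. The diets were far apart, and the difference was 4.82 ± 0.17 (SE, n = 6 and 6), a ratio of 28.2. The high-fat mean stood at the 98.6th percentile of all probes and the standard-diet mean at the 78.7th.

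In gonadal fat Tph2 ran from 7.49 through a median of 7.89 to 8.19 on the standard diet and from 11.31 through 12.26 to 13.51 on the high-fat diet. Every high-fat array lay above every standard-diet array, with a difference of 4.45 ± 0.33, a ratio of 21.9. In subcutaneous fat the low, median and high values were 7.34, 7.6 and 7.72 against 10.88, 11.76 and 12.38, again without overlap, a difference of 4.13 ± 0.22 and a ratio of 17.6. In inguinal fat they were 7.92, 8 and 8.34 against 11.31, 11.81 and 12.56, also apart, a difference of 3.83 ± 0.18 and a ratio of 14.2.

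Mesenteric and brown fat had lower Tph2 on both diets. In mesenteric fat the low, median and high values were 6.28, 6.75 and 7.22 on the standard diet, where 2 of 6 arrays exceeded their own array's median probe, and 8.2, 9.73 and 10.98 on the high-fat diet, where all 6 did. The groups did not overlap, and the difference was 2.84 ± 0.43, a ratio of 7.16. In brown fat they were 6.12, 6.39 and 6.66 against 7.6, 9.47 and 10.26, with 0 of 6 standard-diet arrays above their array median, a difference of 2.81 ± 0.37 and a ratio of 6.99. Where the standard-diet signal lies this near background the ratio depends on the background model: without background correction the difference in brown fat was 2.27, and with a background offset of 16 in place of 50 it was 3.46.

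Liver and muscle did not share this separation. In liver the low, median and high values were 5.72, 6.02 and 6.42 on the standard diet and 5.71, 5.92 and 6.23 on the high-fat diet, with overlapping groups, a difference of -0.12 ± 0.12 and 0 of 12 arrays above the array median. In muscle they were 5.99, 6.36 and 6.64 against 6.35, 6.78 and 8.89. The muscle groups overlapped. The difference was 0.78 ± 0.39, and 0.42 without high-fat replicate 5, which read 8.89. The same array had the highest values of its group for Adipoq (12.37), the adipokine Lep (11.95) and the lipid-droplet proteins Cidec (11) and Plin1 (8.24), and the highest sum over the 8 adipocyte markers, 26685 against 22577 to 26082 on the other high-fat arrays. The part of adipose RNA in that muscle value was not tested.

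**Figure D1:**
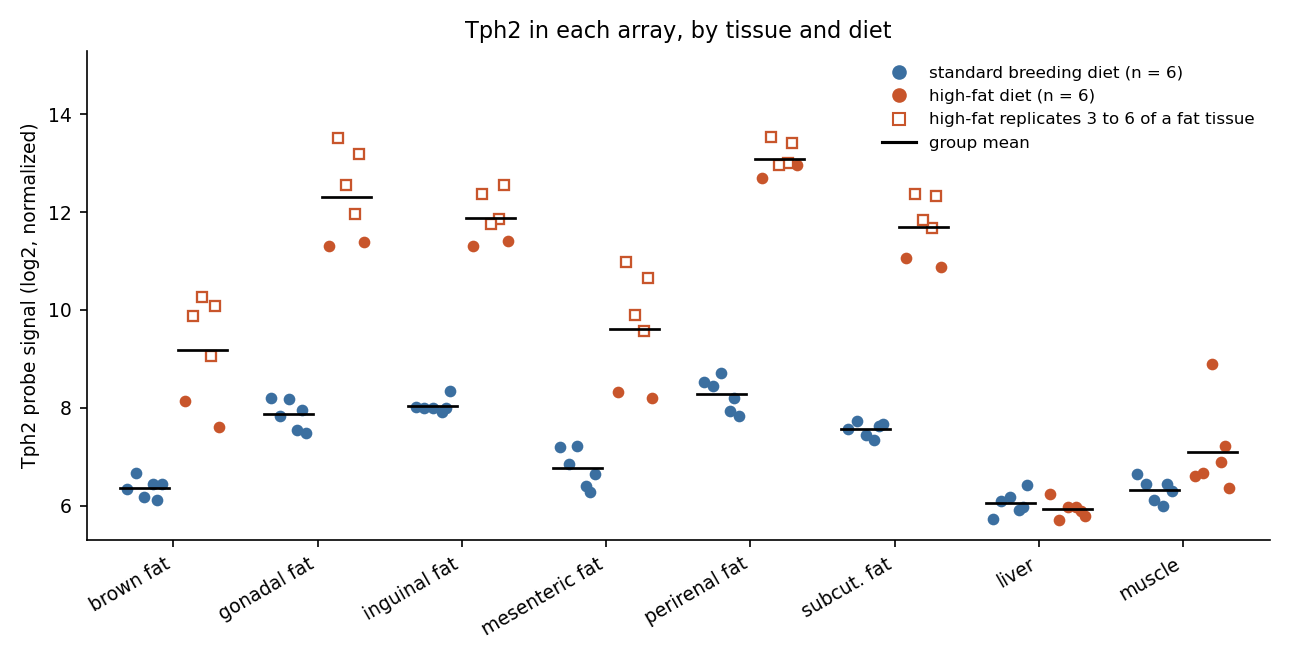
Tph2 signal of each array (vertical axis, log2, normalized) by tissue (horizontal axis) and diet, 6 arrays per group; horizontal bars are group means and open squares are high-fat replicates 3 to 6 of the fat tissues. The diets are apart in the 6 fat tissues, from 6.36 against 9.17 in brown fat to 8.28 against 13.09 in perirenal fat, and overlap in liver and muscle.

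All 6 high-fat arrays lay above all 6 standard-diet arrays in 6 of 8 tissues for Tph2, a pattern that 1.93% of tested probes showed in brown, 2.78% in gonadal, 4.55% in inguinal, 0.48% in mesenteric, 6.14% in perirenal and 3.15% in subcutaneous fat. Because this contrast chose the gene, nothing is read from that count. Among all 46632 probes its difference had rank 1 from the top in brown, gonadal, inguinal, perirenal and subcutaneous fat, rank 4 in mesenteric fat, rank 10 in muscle and rank 39180 in liver. The order of the fat tissues by standard-diet mean was perirenal (8.28 ± 0.35 SD), inguinal (8.04 ± 0.15), gonadal (7.86 ± 0.3), subcutaneous (7.56 ± 0.15), mesenteric (6.76 ± 0.4) and brown (6.36 ± 0.2), with muscle at 6.32 ± 0.24 and liver at 6.04 ± 0.24. Every pair of neighbours in this order had overlapping ranges except subcutaneous and mesenteric fat. On the high-fat diet the order was perirenal (13.09 ± 0.32), gonadal (12.32 ± 0.92), inguinal (11.88 ± 0.5), subcutaneous (11.7 ± 0.62), mesenteric (9.6 ± 1.16) and brown (9.17 ± 1.1), and here each pair of neighbours overlapped.

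Within the high-fat group Tph2 moved with array contrast. In 5 of 6 fat tissues high-fat replicates 3 to 6 all lay above replicates 1 and 2, for example at 9.06 to 10.26 against 7.6 and 8.14 in brown fat, and in perirenal fat the ranges met at 12.96. On the intensity scale the order in perirenal fat was the opposite, with 14785 and 17940 in replicates 1 and 2 and 6657 to 13263 in replicates 3 to 6. In 6 of 6 fat tissues replicates 1 and 2 alone also lay above every standard-diet array. With replicates 3 to 6 left out the difference was 4.55 in perirenal, 3.48 in gonadal, 3.41 in subcutaneous, 3.31 in inguinal, 1.51 in brown and 1.5 in mesenteric fat. The single Tph2 probe leaves no second measurement of the same mRNA on these arrays, and its target sequence was not analysed here.

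Of the 8 named genes whose 16 group means most resembled those of Tph2, 5 are on the macrophage list used here, which was itself drawn up with earlier results of these data known. By Pearson correlation over these means, with the brightest probe of each of 13714 genes, they were Mmp12, a macrophage elastase (0.963), Gpnmb, a lysosomal glycoprotein of lipid-laden macrophages (0.96), Eid1, an inhibitor of differentiation (0.958), Trem2, a lipid-sensing receptor (0.94), Itgad, an integrin of macrophages and other leukocytes (0.935), Ccl2, a monocyte chemokine (0.934), Nptn, an adhesion protein (0.929), and Itgax, the integrin CD11c (0.927). The points share arrays, depot and diet, 26 genes had a correlation over 0.9, and no test was made. The macrophage list has 10 genes on the array. These means also hold the diet difference for which Tph2 was chosen, so nothing is read from the count of 5 of 8. The size of the difference was not shared: in perirenal fat Mmp12, Gpnmb, Trem2 and Itgad differed by 3.01, 2.7, 2.96 and 3.94 against 4.82 for Tph2, and in mesenteric fat by 1.3, 0.86, 1.04 and 0.18 against 2.84.

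**Figure D2:**
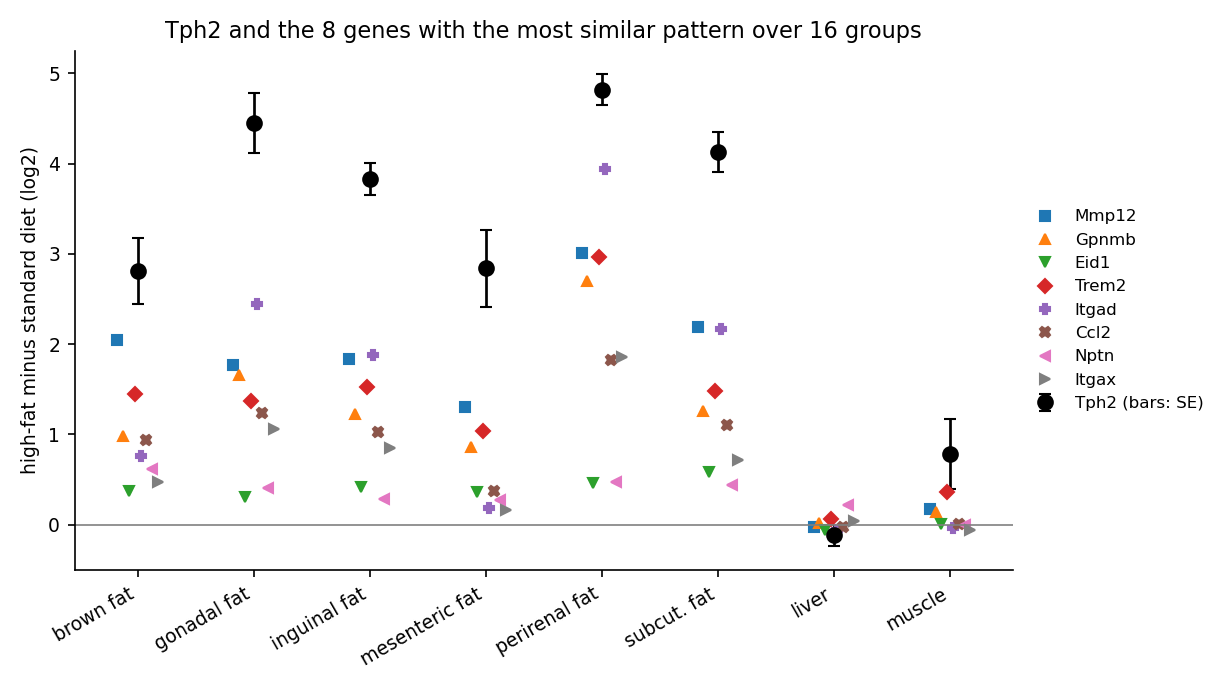
Difference between diets (vertical axis, high-fat minus standard, log2) of Tph2 and of the 8 genes most like it over 16 group means, by tissue (horizontal axis); bars on Tph2 are SE, n = 6 arrays per diet. Tph2 lies above the other 8 in each fat tissue, at 4.82 in perirenal fat where Itgad reaches 3.94, and in liver all 9 lie between -0.12 and 0.22.

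Markers of the cell types that could carry the signal were set beside Tph2. The macrophage list, 10 genes on the array, had 10 of 10 tested genes called higher in perirenal fat, where 12.3% of all tested probes were, and 8 of 10 in inguinal fat, where 10.9% were. It had 7 of 10 in gonadal fat (5.85% of probes), 7 of 10 in subcutaneous fat (8.59%), 7 of 8 in brown fat (5.91%) and 1 of 10 in mesenteric fat (0.232%). In liver and muscle limma called 0 of 5 and 0 of 4, with 2 in each at an unadjusted p under 0.05. The macrophage list was drawn up with earlier results of these data known, so nothing is read from these counts. The summed level of its genes in perirenal fat was 12200 to 21600 on the standard and 40800 to 62500 on the high-fat diet, groups that were apart. In mesenteric fat, where the Tph2 groups were also apart, the sums were 16500 to 30000 and 16400 to 22200 and overlapped. Within the list the mesenteric differences were unequal: Trem2 rose by 1.04 ± 0.2 (limma adjusted p = 0.0377), Mmp12 differed by 1.3 ± 0.38 and Gpnmb by 0.86 ± 0.29 without passing, Itgad by 0.18 ± 0.09, and Lyz2 and Msr1 by -0.24 and -0.36. The neuron and sympathetic nerve list, 9 genes, summed to between 1120 and 1960 in the 6 fat tissues on either diet with overlapping ranges in every tissue. Liver (1160 to 1490) and muscle (1230 to 1740) gave sums of the same level. In a fat tissue only 4 or 5 of these genes were bright enough to test, so nothing is read from the overlap. The mast cell list, 11 genes including Kit, Cpa3 and Mcpt4, summed to 2990 to 4070 and 3970 to 6330 in perirenal fat, where 4 of 7 tested genes were called higher. Platelet markers, 7 genes, summed to 1410 to 1980 and 1590 to 3580 there, where 1 of 3 tested genes was called higher. Among them Pf4 had means of 9.81 and 10.93, so the sum is not a measure of all 7 genes. The part of these cells in the Tph2 signal was not tested.

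Tph1, the other hydroxylase, was near the bottom of the measurable range. Its probe exceeded the array median on 8 of 96 arrays, with intensities from 76 to 270, and it passed the filter on dim probes, a tissue mean above the median probe, in 0 of 8 tissues, so its diet difference was not tested. On the standard diet its group means ran from 6.21 ± 0.2 in gonadal fat to 6.82 ± 0.21 in inguinal fat and 6.95 ± 0.39 in muscle, where the values were 6.5, 6.94 and 7.58 at the low, median and high. The probe entered limma's F test over the 48 standard-diet arrays only through muscle, its highest group. That test gave adjusted p = 6.07e-06, and 7.31e-06 with no filter on dim probes, but no neighbours in the order differed beyond their spread (two-sided exact permutation tests, adjusted p from 0.364 to 0.981). In inguinal fat the low, median and high were 6.6, 6.8 and 7.16 on the standard and 6.12, 6.48 and 6.7 on the high-fat diet, groups that overlapped, a difference of -0.39 ± 0.13. In brown fat, where Tph2 differed by 2.81, Tph1 differed by 0.17 ± 0.13.

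Ddc mRNA was a liver signal. For probe ILMN_2628648 the standard-diet liver arrays read 11.1 at the lowest, 11.6 at the median and 12.6 at the highest, and for ILMN_1260450 they read 10.14, 10.49 and 11.63. Mesenteric fat came next, with means of 7.87 ± 0.6 and 7.77 ± 0.52, then gonadal fat with 7.15 ± 0.46 and 7.09 ± 0.51, while brown fat, inguinal fat, subcutaneous fat and muscle lay between 6.32 and 6.63. The tissue F test gave adjusted p = 9.94e-27 and 5.27e-25 for these probes. Liver differed from mesenteric fat beyond the spread for both (exact permutation p = 0.00216, the smallest that 6 against 6 arrays can give, adjusted p = 0.0455), and no other neighbours did. The third probe, ILMN_1229396, was dim, above the array median on 3 of 96 arrays, and its liver mean of 7.45 ± 1.23 held a single array at 9.64. Over the 16 group means the first 2 probes correlated at 0.99 and each with the third at 0.8 and 0.81. In all, 6 of 8 member probes other than Tph2 could be tested between tissues and 6 were called, where 91.7% of all tested probes were. Tph1 and ILMN_1229396 passed the filter only through their highest tissue, so nothing is read from this count.

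On the high-fat diet Ddc in liver was lower. Probe ILMN_1260450 read 9.08, 9.67 and 9.98 at the low, median and high, below every standard-diet array, a difference of -1.1 ± 0.23 that passed the test (limma, Benjamini-Hochberg adjusted p = 0.0435), where 0.249% of tested probes fell in liver and 0.536% had all high-fat below all standard-diet arrays. Probe ILMN_2628648 read 10.63, 10.82 and 10.96, also below every standard-diet array, but its difference of -0.92 ± 0.21 missed the threshold (limma adjusted p = 0.078), as did that of ILMN_1229396 (-0.84 ± 0.41, limma adjusted p = 0.583). The call was lost when any of 10 of the 12 liver arrays was left out (limma adjusted p up to 0.115), all but standard-diet replicates 3 and 4. The difference then stayed between -1.22 and -0.92. The call was also lost with a background offset of 16 (limma adjusted p = 0.0712), contrast as a covariate (0.0668), median scaling (0.342) and high-fat replicates 3 to 6 left out (0.818).

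In mesenteric fat Ddc was low on 2 arrays that were also low in some pancreas markers. Standard-diet replicate 1, the array with the exocrine sum of 1806, read 6.71 for ILMN_1260450 against 7.92 to 8.09 on the other 5, and 6.68 for ILMN_2628648 against 7.94 to 8.23. High-fat replicate 4, which had the lowest exocrine sum of its group (307881) and the lowest sum over the 8 enterochromaffin and islet markers (1452), read 6.67 for both probes, where the group reached 8.21 and 8.34. That exocrine sum was nonetheless far above the 1806 of standard-diet replicate 1. Standard-diet replicate 5 had a still lower exocrine sum of 201907, and Ins2 at 7.91 against 13.04 to 14.73 on replicates 2, 3, 4 and 6. It read 8 and 8.23 for the Ddc probes, so Ddc did not follow the exocrine sum across arrays. Its enterochromaffin and islet sum of 4417 was above the 1112 on standard-diet replicate 1 and the 1452 on high-fat replicate 4, the lowest of their groups. Single markers of that list were mixed. Between high-fat replicate 4 and standard-diet replicate 5, Ins2 was higher on the former (8.32 and 7.91). Iapp was alike (7.16 and 7.17) and Chga lower (6.43 and 6.9). Nothing is therefore read from the order of these sums. Without standard-diet replicate 1, a choice made after seeing the data, the mesenteric mean was 7.98 ± 0.07 and 8.11 ± 0.13 (SD, n = 5), and liver still lay 2.74 and 3.62 above it (exact permutation p = 0.00216). The part of pancreas RNA in the mesenteric Ddc signal was not tested.

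Slc6a4, the serotonin transporter, was measured in fat at low levels and fell in 2 white depots. In inguinal fat probe ILMN_2585676 read 7.51, 7.73 and 8.16 at the low, median and high on the standard diet and 7.08, 7.2 and 7.44 on the high-fat diet. The groups were apart, as for 4.24% of tested probes there, and the difference was -0.54 ± 0.1 (limma adjusted p = 0.00162). Probe ILMN_2713714 read 7.26, 7.6 and 8.39 against 6.95, 7.25 and 7.34 there, overlapping, a difference of -0.49 ± 0.15 (limma adjusted p = 0.0272). In gonadal fat this probe read 7.7, 7.89 and 8.28 against 7.34, 7.51 and 7.67, without overlap as for 2.99% of tested probes, a difference of -0.43 ± 0.1 (limma adjusted p = 0.0117), while ILMN_2585676 differed by -0.18 ± 0.09 there (limma adjusted p = 0.214). These are differences in a direction opposite to that of Tph2 in the same arrays. The background of calls is wide: 11.7% of tested probes fell in inguinal and 5.55% in gonadal fat.

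The Slc6a4 calls varied with the setting. With high-fat replicates 3 to 6 left out, which leaves 2 high-fat arrays, the differences were -0.5 and -0.44 in inguinal and -0.32 in gonadal fat, and none passed (limma adjusted p = 0.116, 0.396 and 0.44). With array contrast as a covariate ILMN_2585676 in inguinal fat still passed (limma adjusted p = 0.0144) and the other calls did not (0.141 and 0.0502), and median scaling gave 0.0216 for the first and 0.0968 and 0.101 for the others. The inguinal call of ILMN_2713714 was also lost without standard-diet replicate 6, high-fat replicate 3 or high-fat replicate 6. Mast cell markers, of a cell type known to store serotonin, summed to 4610 to 10000 on the standard and 4180 to 5870 on the high-fat diet in inguinal fat, with 2 of 8 tested genes called lower. Platelet markers summed to 1260 to 2050 and 1500 to 2330 there, and the part of either cell type in the Slc6a4 difference was not tested.

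Across the tissues of the standard diet the Slc6a4 probes gave related orders. ILMN_2585676 was highest in inguinal fat (7.76 ± 0.22) and lowest in brown fat (6.73 ± 0.09), and ILMN_2713714 was highest in gonadal fat (7.94 ± 0.21) and lowest in liver (6.89 ± 0.32). The tissue F test gave adjusted p = 1.2e-09 and 2.9e-09, and no neighbouring tissues differed beyond their spread (exact permutation, adjusted p from 0.273 to 0.86). The correlation of the probes over 16 group means was 0.79. In mesenteric fat ILMN_2585676 read 6.9 on standard-diet replicate 1, the array low in pancreas markers, and 7.45 to 7.72 on the other 5.

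Maoa, the oxidase that prefers serotonin, stayed below the array median on all 96 arrays with both of its probes. Group means of ILMN_2598486 lay between 6.14 and 6.4 and those of ILMN_2737954 between 5.83 and 6.02, and neither was tested. The largest diet difference of the first was -0.18 ± 0.12 in subcutaneous fat, and no group of either probe was apart from its counterpart. At this signal a change in Maoa mRNA was not detectable, which is not evidence that the mRNA is absent.

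**Figure D3:**
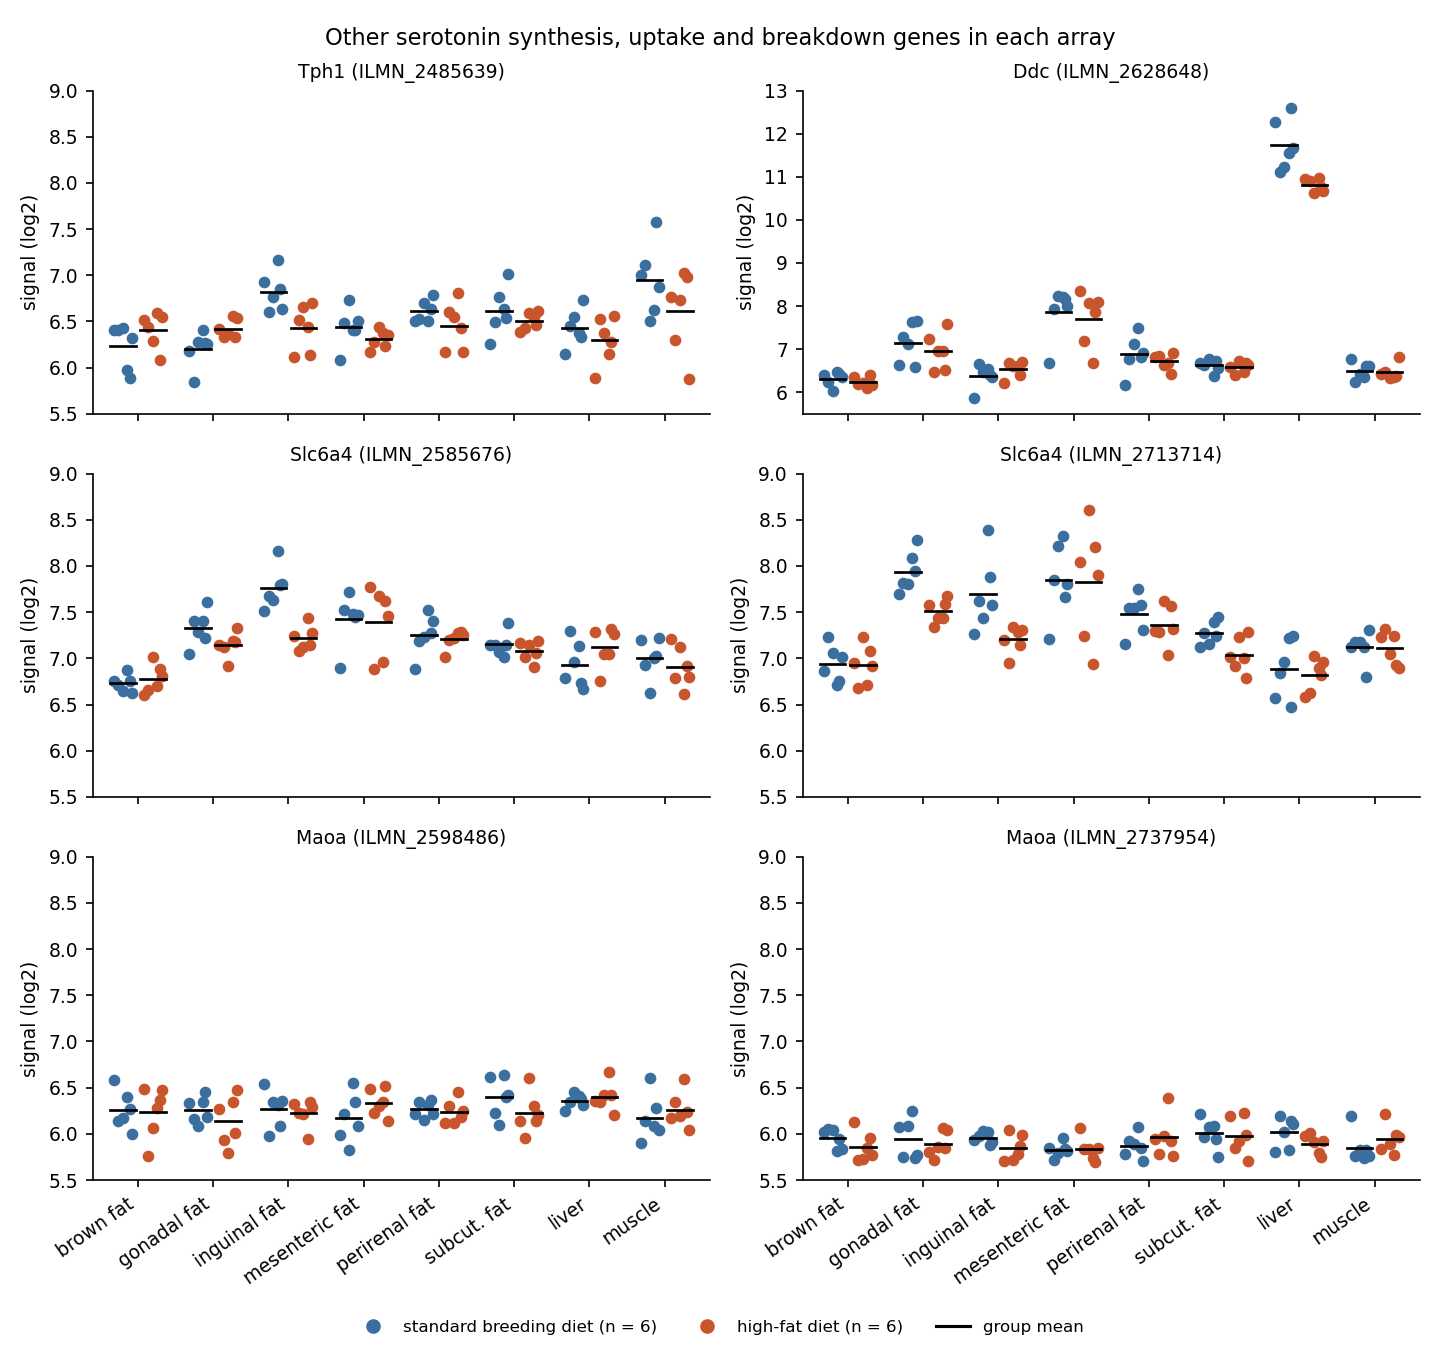
Signal of each array (vertical axes, log2; the Ddc panel has a longer axis) by tissue and diet for 6 probes of Tph1, Ddc, Slc6a4 and Maoa, 6 arrays per group, with bars at group means. Ddc lies between 10.63 and 12.6 in liver and below 9 elsewhere, and both Maoa probes lie below 7 throughout.

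Counted together, the 8 probes of these 4 genes gave 64 probe and tissue combinations, of which 21 passed the filter and 4 were called, all lower on the high-fat diet. The calls lay in inguinal and gonadal fat and liver, where 11.7%, 5.55% and 0.249% of all tested probes fell. The diet effect of Slc6a4 ILMN_2585676 differed between tissues (limma F test over the 96 arrays, adjusted p = 0.0242), as did that of Ddc ILMN_1260450 (0.00301), where 19.1% of all tested probes did. The Slc6a4 call was lost without inguinal fat (0.705). Ddc ILMN_1229396 gave 0.0378, but it passed the filter only through liver, its highest tissue, and gave 0.0539 with no filter. It did not pass for Slc6a4 ILMN_2713714 (0.382) or Ddc ILMN_2628648 (0.0811). With liver left out limma called 0 of 4 tested probes, 1 of them at an unadjusted p under 0.05.

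The wider pathway was followed through 59 genes on the array out of 69 listed, each by its brightest probe. In brown fat 33 could be tested, 5 were higher and 7 lower, where 5.91% and 7.38% of all tested probes were. In gonadal fat 35 were tested, 4 higher and 8 lower, against 5.85% and 5.55%. In inguinal fat 37 were tested, 6 higher and 9 lower, against 10.9% and 11.7%. In perirenal fat 35 were tested, 6 higher and 8 lower, against 12.3% and 12.1%, and in subcutaneous fat 40, 6 and 7, against 8.59% and 10.3%. In mesenteric fat 43 were tested with 0 higher and 2 lower, against 0.232% and 0.399%. In liver 42 and in muscle 36 were tested, and by limma 0 passed in either (unadjusted p under 0.05 in 7 and 2 of them), against 0.249% higher in liver and 0.03% higher and 0.0257% lower in muscle. The median difference of the tested pathway genes lay between -0.07 in gonadal and 0.07 in brown fat over the 8 tissues, and that of all tested probes between -0.03 and 0.

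Genes of the hydroxylase cofactor moved in both directions. Gchfr, the feedback regulator of tetrahydrobiopterin synthesis, fell in 6 of 6 fat tissues by between 0.4 and 1.32 on the log2 scale, and in gonadal fat its mean went from 10.17 ± 0.4 to 8.85 ± 0.29. Pts, the second enzyme of that synthesis, fell in 5 fat tissues by 0.35 to 0.63. Gch1, its first and rate-limiting enzyme, rose in brown, inguinal and perirenal fat by 0.34 to 0.55, and Pcbd1, which recycles the cofactor, rose in gonadal, perirenal and subcutaneous fat by 0.47 to 0.96. Over the 7 cofactor genes on the array, 42 tests in fat gave 7 calls higher and 13 lower, where between 0.232% and 12.3% of all tested probes rose and between 0.399% and 12.1% fell in a fat tissue. Th, the tyrosine hydroxylase that shares this cofactor, was dim in all 8 tissues and not tested.

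Over the 7 breakdown genes on the array, 31 tests in fat gave 16 calls lower and 1 higher, where between 0.399% and 12.1% of all tested probes fell in a fat tissue. The calls were 5 of 5 lower in inguinal, 4 of 5 in gonadal and perirenal, 2 of 5 in brown and 0 of 6 in mesenteric fat, and 1 lower and 1 higher of 5 in subcutaneous fat. Maob, unlike Maoa, was bright: it went from 10.53 ± 0.11 to 9.73 ± 0.14 in perirenal fat (-0.8 ± 0.08, limma adjusted p = 1.05e-05), and it fell in 5 of 6 fat tissues by 0.43 to 0.85, while it differed by -0.18 ± 0.15 in mesenteric fat and 0.21 ± 0.09 in liver without passing. Inmt, which methylates indoleamines, fell in gonadal, inguinal and perirenal fat by 1.04 to 2.08. Aldh2, an aldehyde dehydrogenase downstream of the oxidases, fell in 4 fat tissues by 0.43 to 0.63, and Sult1a1, a sulfotransferase, in 3 by 0.32 to 0.56. Adipocyte markers, 8 tested genes per fat tissue, were called in both directions. In perirenal fat 4 were lower and 1 higher (median difference -0.44), in gonadal fat 3 and 1 (-0.36), and in brown fat 3 and 2 (-0.23). In inguinal fat 1 was lower and 0 higher (-0.2), in subcutaneous fat 1 and 2 (-0.07), and in mesenteric fat 0 and 1 (-0.1). In a fat tissue between 0.399% and 12.1% of all tested probes fell and between 0.232% and 12.3% rose. The part of adipocyte RNA in the breakdown genes' differences was not tested.

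Genes of uptake, storage and receptors were counted in the same way. In fat, 40 tests of amino acid transport genes gave 3 calls higher and 6 lower. For vesicle storage and other uptake 15 tests gave 1 higher and 0 lower, and for receptors 22 tests gave 2 and 0. In a fat tissue between 0.232% and 12.3% of all tested probes rose and between 0.399% and 12.1% fell, so nothing is read from these counts. Slc43a1, a transporter of large neutral amino acids, fell in 5 white depots by 0.65 to 1.19, and in subcutaneous fat it went from 9.02 ± 0.16 to 7.83 ± 0.09 (limma adjusted p = 5.42e-07). Slc7a8, another carrier of these amino acids, rose in perirenal (0.69 ± 0.12) and subcutaneous fat (0.43 ± 0.12), and Slc7a5 in brown fat (0.63 ± 0.13). The vesicle transporters Slc18a1, dim in all 8 tissues, and Slc18a2, tested in 5 tissues, gave no call. Slc22a2, a low-affinity carrier of monoamines, rose in brown fat (0.46 ± 0.09). Of 14 serotonin receptors 3 to 5 could be tested per tissue, and 2 calls were made, both of Htr2b: 6.96 ± 0.12 against 7.96 ± 0.55 in perirenal fat (1 ± 0.2, limma adjusted p = 0.00294) and 0.44 ± 0.13 in gonadal fat (limma adjusted p = 0.0387).

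Other fates of tryptophan and serotonin were called in fat as well. There the kynurenine list gave 6 calls higher and 6 lower in 41 tests. Protein coupling gave 5 and 0 in 12 tests, and regulators of serotonergic neurons 2 and 0 in 20. In a fat tissue between 0.232% and 12.3% of all tested probes rose and between 0.399% and 12.1% fell. In the kynurenine pathway, which takes most tryptophan, Afmid, the kynurenine formamidase, rose in gonadal, inguinal, perirenal and subcutaneous fat by 0.32 to 0.58, and Kyat3, a kynurenine aminotransferase, fell in 5 fat tissues by 0.26 to 0.5. Tgm2, the transglutaminase that can couple serotonin to proteins, rose in 5 fat tissues by 0.33 to 0.4. Gata2, a factor of serotonergic neurons that blood and fat cells also express, rose in brown and subcutaneous fat by 0.35 and 0.5. The number of calls varied with the setting. Of the 62 calls of the named pathway genes 48 passed with contrast as a covariate, 9 with high-fat replicates 3 to 6 left out and 10 with median scaling. With those replicates left out Haao in inguinal fat was not tested and the other 61 kept their sign. With median scaling 58 of the 62 did. Leaving out those replicates leaves 2 high-fat arrays in each tissue. Of the 61 differences 21 were then at least as large, 13 were over 1.5 times smaller, and the median was 92.3% of its size with all arrays. Of the 62 calls 53 passed with any single array of their tissue left out, and those that did not were Maob and Gata2 in brown fat, Pcbd1 and Htr2b in gonadal fat, Haao in inguinal fat, Aldh2 in perirenal fat, and Slc7a8, Slc43a2 and Kyat3 in subcutaneous fat (highest adjusted p = 0.106, limma). The calls whose sign turned under median scaling were Tgm2 in brown (-0.01) and gonadal fat (-0.06), Gata2 in brown fat (-0.05) and Gch1 in inguinal fat (-0.08). The 7 that passed all 3 were Slc43a1 in inguinal, perirenal and subcutaneous fat, Gchfr in perirenal and subcutaneous fat, and Maob and Htr2b in perirenal fat.

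**Figure D4:**
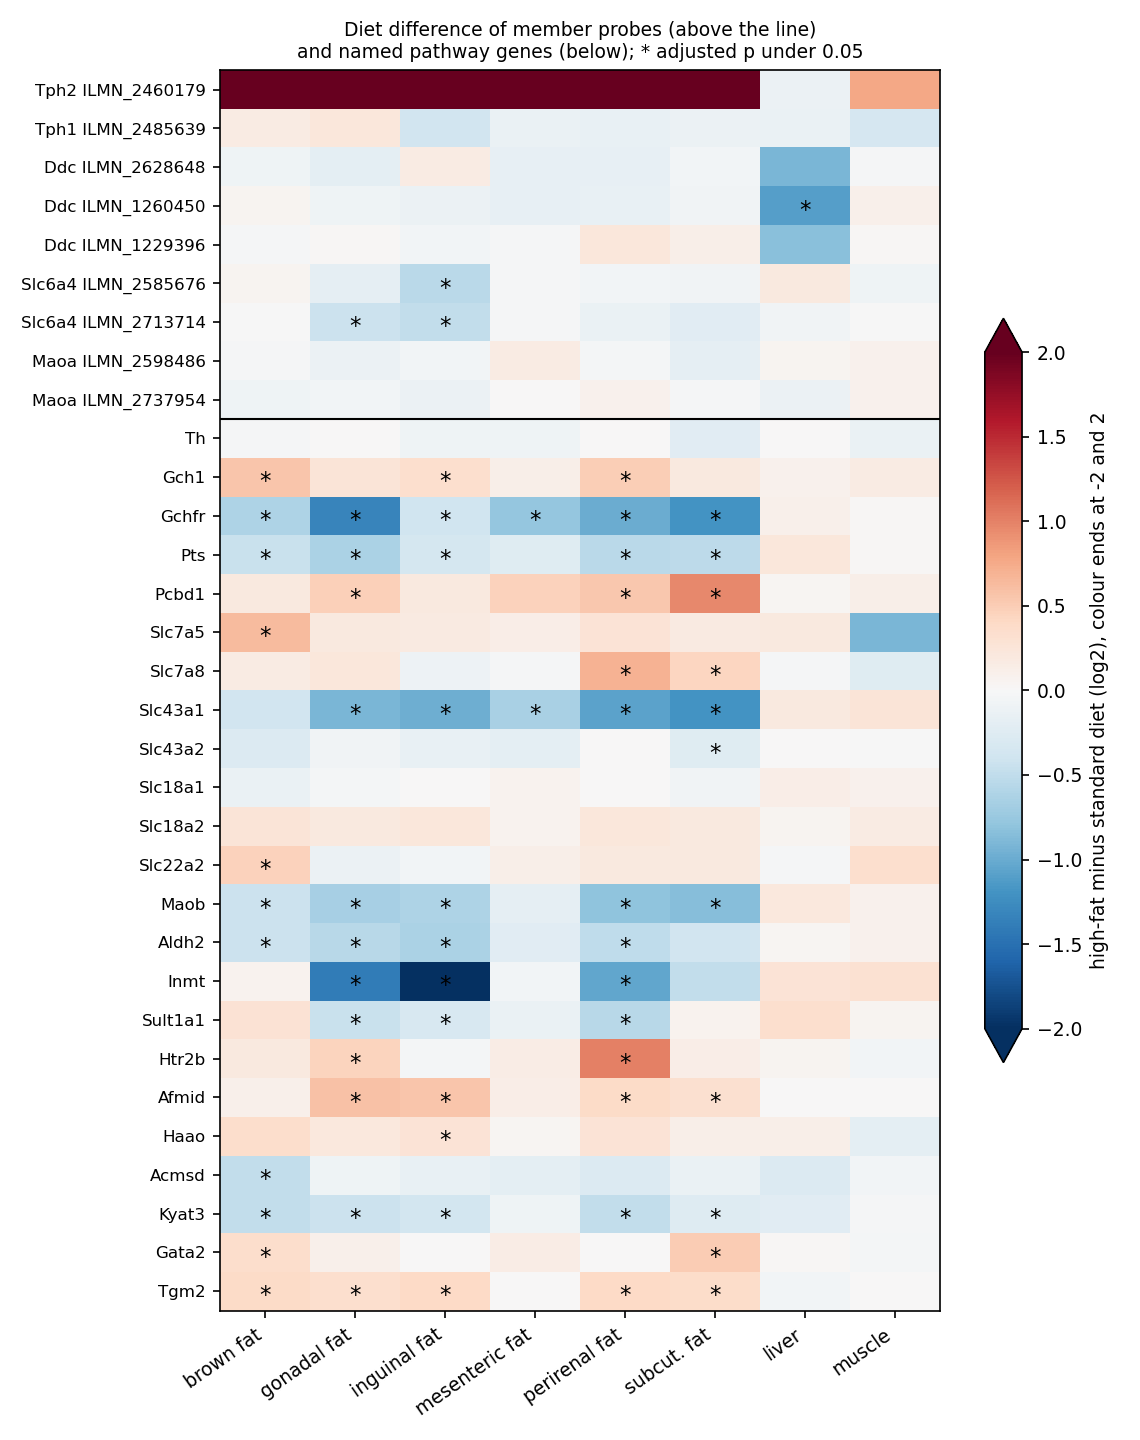
Difference between diets (colour, high-fat minus standard, log2, ending at -2 and 2) of the 9 member probes above the line and the 23 named pathway genes below it, in 8 tissues; a star marks an adjusted p under 0.05, and Tph2 was not tested. The Tph2 row is dark in the 6 fat tissues, the Gchfr, Pts, Slc43a1 and Maob rows are lower there, and liver and muscle hold 1 star, that of Ddc in liver.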

How the data were processed

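RNA of 96 samples was labelled and hybridised to Illumina Mouse-6 BeadChips, per the labels' protocols. The authors deposited probe intensities that are not normalized, on a linear scale, and a second table of log2 values. The deposited log2 values have the same sorted values on every array within 0.00191, with a median of 7.39, which is the form quantile normalization gives; the software is not given in the sources used here. Of 46632 probes 29976 have 1 gene symbol in the platform table, 10 have several and 16646 have none.

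The intensities were background-corrected with normexp at an offset of 50, set to log2 and quantile-normalized over the 96 arrays (limma 3.58.1 in R 4.3.3). For each tissue the diets were compared with limma (lmFit and eBayes, 6 against 6 arrays) over the 23316 probes whose tissue mean was above the median probe, with Benjamini-Hochberg adjustment over these and a threshold of 0.05. Tissues on the standard diet and the interaction of tissue and diet were tested with limma's F test, and neighbours in the tissue order with two-sided exact permutation tests adjusted over 42 pairs. A gene of a list is represented by its brightest probe. Pathway genes are named where called in at least 1 tissue, at most 4 per list by smallest adjusted p, with Maob, Th, Slc18a1 and Slc18a2 always. The models were tested on simulated data, among 23316 probes per tissue. Of probes changed by 1 on the log2 scale, 69% (perirenal fat) to 81% (gonadal and inguinal fat) were recovered, and of those changed by 0.5, 32% (liver) to 72% (inguinal fat). Alternatives were the background offset (16), no background correction (floor of 16), the authors' log2 values, median scaling, normalization within a tissue, no filter, contrast as a covariate, the replicate block and leaving out arrays.

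The members and lists were chosen with earlier results of these data known. Replicates are labelled biological replicates; sex, chip and dissection day are not in the labels used here, so a batch could not be fitted.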

Additional observations from a re-analysis of the deposited data

Results flagged for a closer look

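Of 144 groups of 6 arrays, 12 held an array whose gap to the nearest other exceeded Dixon's critical value, 8.33% where chance flags about 1 in 20. Tph2 stood apart at 8.34 on inguinal standard-diet replicate 2 and at 8.89 on muscle high-fat replicate 5. Mesenteric standard-diet replicate 1, the array low in pancreas markers, was low for Ddc ILMN_1260450 (6.71), Ddc ILMN_2628648 (6.68) and Slc6a4 ILMN_2585676 (6.9). Ddc ILMN_1229396 was high on perirenal standard-diet replicate 5 (6.51) and Ddc ILMN_2628648 on muscle high-fat replicate 2 (6.83). Single arrays also stood apart for the dim Maoa probes, at 5.95 for ILMN_2598486 on inguinal high-fat replicate 4, and at 6.39 on perirenal high-fat replicate 4 and 6.19 on muscle standard-diet replicate 1 for ILMN_2737954. Slc6a4 stood apart on perirenal high-fat replicate 1 (7.01, ILMN_2585676) and muscle standard-diet replicate 6 (6.8, ILMN_2713714).

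The diet effect differed between tissues, by limma's F test for the interaction, for Slc6a4 ILMN_2585676 (adjusted p = 0.0242), Ddc ILMN_1260450 (adjusted p = 0.00301) and Ddc ILMN_1229396 (adjusted p = 0.0378). The last probe passed the filter on dim probes only through liver and gave 0.0539 with no filter.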

How the results depend on the processing

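The count of 4 member calls became 1 with median scaling, 1 with contrast as a covariate and 0 with high-fat replicates 3 to 6 left out (limma, 3 of 22 tested at an unadjusted p under 0.05). Pathway calls, 27 higher and 41 lower, became 1 and 11 with median scaling, and 2 and 7 with those arrays left out. Median scaling moved the median probe by -0.27 to -0.17 in the fat tissues. With high-fat replicates 3 to 6 left out the Tph2 difference was 1.51 in brown, 3.48 in gonadal, 3.31 in inguinal, 1.5 in mesenteric and 3.41 in subcutaneous fat. That setting leaves 2 high-fat arrays, and the cause of the changes was not tested. The 3 interaction calls became 1 with those arrays of the fat tissues left out and 0 without liver. With 1 array left out at a time, member calls ran from 3 to 5, higher pathway calls from 24 to 30 and lower ones from 39 to 43. The Tph2 difference then ran from 2.59 to 3.12 in brown, 4.22 to 4.66 in gonadal, 3.7 to 3.94 in inguinal, 2.56 to 3.12 in mesenteric, 4.73 to 4.9 in perirenal and 4 to 4.3 in subcutaneous fat, -0.19 to -0.05 in liver and 0.42 to 0.93 in muscle. Arrays of the 2 diets with the same replicate number correlated between -0.34 and 0.49 in their deviations from group means, over 0.1 in 22 of 48 pairs, so the numbers were not taken to pair the diets. With the replicate number as a block there were 4 member calls, 30 higher and 45 lower pathway calls, and of the named genes Gchfr and Slc43a1 in mesenteric fat and Slc43a2 in subcutaneous fat no longer passed. Across fat tissues same-numbered arrays correlated between -0.07 and 0.64, over 0.1 in 166 of 180 pairs, and with diet and number as a random block the interaction calls were 4 in place of 3, with Ddc ILMN_2628648 added (limma adjusted p = 0.0402). The 6 tissue calls became 5 without liver or without muscle and were 6 in the other alternatives run; no member call or Tph2 difference in fat changed direction. Signal near background limits Tph1, Maoa and Tph2 outside fat.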
